A study of Xenopus laevis with 14 samples.

Results

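The genes described here encode proteins of blood plasma that the liver secretes, together with the serpin family to which several of them belong. They were taken by symbol: every gene whose name begins with serpin or itih, the apolipoproteins apoa to apoh, and 24 further names of coagulation, complement, transport and acute phase proteins. The rule found 47 genes among the 9715 that the platform annotation names by a single symbol, 42 of them measured at NF32 and all 47 at NF36. The 5 without values at NF32 are serpina3.L, serpina3k.L, cfb.S, serpini2.L and f9.S. No gene that had values was left out here for being dim. At NF36 3 of the 5, serpina3.L, serpina3k.L and serpini2.L, had a GFP mean intensity under 16. None of the 42 genes measured at NF32 had such a mean there, against 887 of all 9260. Why the 5 lack values at NF32 was not tested. The 47 genes comprise 17 serpins, 1 inter-alpha-trypsin inhibitor gene, 7 apolipoproteins and 22 genes matched by exact name. They carry 36 base names because 11 genes are present as both an L and an S copy. Copies marked L and S lie on the long and short chromosomes of the allotetraploid frog Xenopus laevis. Of the 24 exact names, 17 were found, and f5, f13b, plg, hpx, c5, cfh and cp were not analysed here. Not every serpin is chiefly a plasma protein: 9 of the 17 were taken to act mainly inside cells or in other tissues. These are given apart as other serpins, a grouping made with earlier results of these data known. The gene for albumin, the main plasma protein, was not analysed because its probe set carries several symbols.

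RNA came from anterior endoderm dissected out of Xenopus laevis embryos at stage NF32 or NF36, both tailbud stages. Controls had received 400 pg of GFP mRNA, and the other group received the same GFP mRNA plus 800 pg of Ptf1a mRNA, so the groups differed in the amount of mRNA injected as well as in Ptf1a. Injection was into dorsal vegetal blastomeres of cleaving embryos, which form anterior endoderm, and about 15 explants were pooled for each array. There were 3 arrays per group at NF32 and 4 at NF36, and a GFP and a Ptf1a array with the same replicate number came from 1 batch of embryos. The comparison asks which genes lie downstream of Ptf1a, a basic helix-loop-helix factor on which acinar pancreas and inhibitory neurons depend.

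Anterior endoderm gives rise to liver, pancreas, stomach and duodenum, and the liver bud starts to make plasma proteins early. Most serpins are suicide inhibitors: a protease cleaves their exposed loop and stays trapped on it. Fibrinogen is built from alpha, beta and gamma chains that thrombin turns into fibrin, thrombin arises from prothrombin by a cascade of clotting enzymes, and apolipoproteins, transthyretin, transferrin and retinol-binding protein carry lipids, hormones, iron and vitamin A in plasma.

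Values are probe set intensities, the brightest probe set standing for each gene at a stage. Levels of different probe sets are not compared with each other, nor levels between stages, because array means were 140.19 to 140.36 at NF32 and 100 at NF36. Changes are Ptf1a minus GFP in log2(intensity + 16) ± SE, which understates the change of dim probe sets, and a gene passed where the Benjamini-Hochberg p of limma, adjusted over every probe set measured at that stage, was under 0.05. A second fit added the embryo batch as a term, and its adjusted p is given as that with the batch term. The ptf1a probe set read 13.6 ± 5.41 in GFP and 314 ± 92.7 in Ptf1a explants at NF32 (SD over 3 arrays each), a log2 change of 3.45 ± 0.24 with an adjusted p of 0.00147. At NF36 it read 30.0 ± 3.34 and 179 ± 94.2 (SD over 4 arrays each), a change of 1.98 ± 0.26 with an adjusted p of 0.00727. Endoderm factors were read in the GFP explants: at NF32 gata6.L read 277 ± 14.6 there and 191 ± 15.2 in Ptf1a explants, and foxa1.L 255 ± 18.2 and 152 ± 22.0 (SD, n = 3 each). Both fell at NF32 (-0.50 ± 0.08, adjusted p = 0.0289, and -0.69 ± 0.11, adjusted p = 0.0272), though gata6.L passed in none and foxa1.L in 1 of 6 fits that left out an array. Both were chosen after their values were seen. Their S copies changed by -0.41 each and passed only with the batch term (adjusted p = 0.0707 and 0.0755, and 0.0409 and 0.0151 with the batch term). The same held for hnf4a.S (-0.38, adjusted p = 0.362, and 0.0266 with the batch term). Of all genes, 5.42% passed lower in that fit at NF32. Other endoderm factors, gata4.L (-0.07), gata4.S (-0.06) and foxa2.L (0.01), passed in neither fit. The share of probe sets under an intensity of 16 was 13% to 15.1% per array at NF32 and 25.4% to 27.5% at NF36.

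One array stood apart. The plasma protein genes without the other serpins summed to 25420, 24890 and 18310 on GFP arrays 1, 2 and 3 of NF32, and the 16 skeletal muscle markers summed to 1706, 1709 and 5693 on the same arrays. GFP array 3 was thus the lowest of its group in the first sum and the highest in the second. Its Ptf1a partner read 19520 and 7029 in these sums, and the other Ptf1a arrays read 17480 and 19540 for plasma proteins and 7629 and 13820 for muscle. For the genes whose call at NF32 changed when that array was left out, both values are given. The array was picked by the low sum of these same genes, so leaving it out tends to deepen their falls. Calls gained that way are not separate support for a fall.

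At NF32, plasma protein genes had mostly lower values in Ptf1a explants, and 1 of 42 passed, itih2.S, which fell (2.38%). Among all 9260 genes 3.93% passed, 1.63% lower and 2.3% higher, so the share of these genes was not above that of all genes. An unadjusted p under 0.05 was found for 20 of the 42 genes and for 1642 of all 9260. With the batch term 15 of 42 passed (35.7%), 10 lower and 5 higher, against 10.8% of all genes, 5.42% lower and 5.35% higher. Changes were below 0 for 28 of 42 genes (66.7%) and for 55.4% of all genes, with medians of -0.22 and -0.02. The groups did not overlap for 13 genes that were lower and 4 that were higher (40.5%), against 23.1% of all genes, 12.6% lower and 10.6% higher. Without GFP array 3, which was picked by the low sum of these genes, 9 of the 42 passed, all lower. The share of all genes was 3.1% in that fit, 1.33% lower. Without GFP array 1 the genes that passed were all higher, and none passed without GFP array 2 or Ptf1a array 1 or 3. Without both arrays of batch 3, the fit with the batch term passed 24 genes, 19 lower and 5 higher, against 9.73% of all genes.

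At NF36, 6 of 47 genes passed (12.8%): f2.L, itih2.S, serpina3k.L and serpind1.L fell, and serpine2.L and serpinf1.L rose. When each of the 8 arrays was left out in turn, serpine2.L always passed, f2.L and serpind1.L passed only without Ptf1a array 1, serpinf1.L only without GFP array 1, and itih2.S and serpina3k.L only without GFP array 4 or Ptf1a array 3. Among all 9594 genes 6.4% passed, 2.23% lower and 4.17% higher. An unadjusted p under 0.05 was found for 20 of the 47 genes and for 2151 of all 9594. Counts of unadjusted p given below for sets of genes at a stage are to be read against such shares. With the batch term 23 passed (48.9%), 18 lower and 5 higher, against 26.5% of all genes, 13.1% lower and 13.4% higher. Changes were below 0 for 38 of 47 genes (80.9%) and for 50.6% of all genes. Groups did not overlap for 10 genes that were lower and 4 that were higher (29.8%), against 15.1% of all genes, 6.67% lower and 8.46% higher. Among the 38 genes that are not other serpins, 35 had a change below 0, 4 passed lower and none higher, and the batch term gave 16 lower and 1 higher, f7.S. The absence of higher calls without the batch term rests on that grouping, because serpine2.L and serpinf1.L are both counted as other serpins. Because these are pooled explants, fewer liver cells and less RNA per liver cell cannot be told apart.

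**Figure D1:**
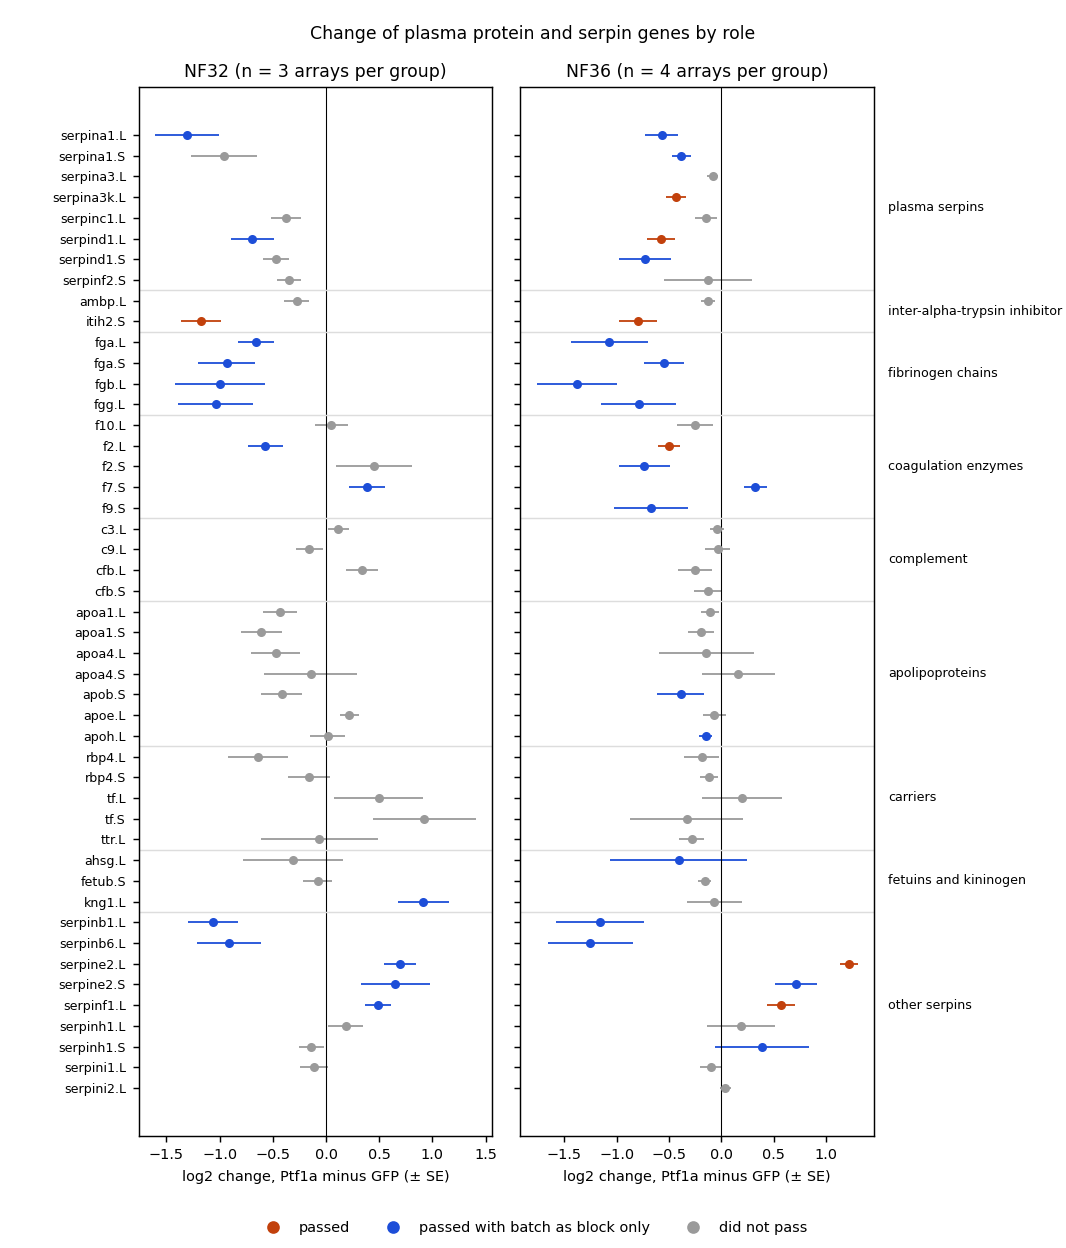
Each point is the log2 change (Ptf1a minus GFP) of a gene's brightest probe set and the bar is its SE, at NF32 on the left and NF36 on the right, ordered by role. Plasma serpins, itih2.S and fibrinogen chains lie left of 0 at both stages, complement genes lie within 0.34 of 0, and serpine2.L has the largest rise at NF36.

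The serpins of plasma were lower as a set of values: all 6 measured at NF32 and all 8 at NF36 had a change below 0, with medians of -0.58 and -0.41. Changes were below 0 for 55.4% and 50.6% of all genes. The 8 include serpina3.L, whose values were too low to compare. The grouping, made with earlier results known, places every serpin with a change above 0 among the other serpins. Of the plasma serpins none passed at NF32 (6 had an unadjusted p under 0.05) and 2 did with the batch term. At NF36 2 passed, and 5 did with the batch term. The shares of all genes with the batch term were 10.8% at NF32 and 26.5% at NF36. At NF32 serpina1.L, which encodes alpha-1-antitrypsin, the inhibitor of neutrophil elastase, read 1299.2, 1415.8 and 659.6 on the GFP arrays and 401, 535.9 and 345.8 on the Ptf1a arrays. The groups did not overlap, and GFP array 3 was the lowest control (-1.31 ± 0.30, adjusted p = 0.0739, and 0.00692 with the batch term). Without that array serpina1.L passed, at -1.65 with an adjusted p of 0.0141. At NF36 serpina1.L read 2161.3, 2111.2, 2357.3 and 2026.9 on the GFP arrays and 1796.7, 1248, 1764 and 1117.2 on the Ptf1a arrays, again without overlap (-0.57 ± 0.16, adjusted p = 0.0754, and 0.0107 with the batch term). Without batch 2 that call with the batch term was lost, at an adjusted p of 0.0554. The S copy serpina1.S read 1570.7, 1237.3 and 754.2 on the GFP arrays and 449.7, 824.7 and 519.4 on the Ptf1a arrays at NF32, where the groups overlapped (-0.96 ± 0.31, adjusted p = 0.182, and 0.0714 with the batch term). By NF36 serpina1.S read 2291.1, 2350.2, 2551.7 and 2323.1 on the GFP arrays and 1869.1, 1656.5, 2152.1 and 1643.3 on the Ptf1a arrays, where every Ptf1a array lay below every GFP array (-0.38 ± 0.09, adjusted p = 0.0528, and 0.00685 with the batch term).

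Heparin cofactor II, an inhibitor of thrombin, is encoded by serpind1. Intensities of serpind1.L at NF32 were 596.3, 539.7 and 393.2 on the GFP arrays and 323.3, 371.5 and 234.4 on the Ptf1a arrays. No Ptf1a array reached the lowest control (-0.69 ± 0.20, adjusted p = 0.145, and 0.00864 with the batch term). Intensities of serpind1.L at NF36 were 1145.4, 1118, 1202.4 and 1013 on the GFP arrays and 953.8, 612.5, 789.5 and 668.7 on the Ptf1a arrays, and it fell with and without the batch term (-0.57 ± 0.13, adjusted p = 0.0436, and 0.00733 with the batch term). The S copy passed only at NF36 and only with the batch term. There serpind1.S read 279.3, 228.4, 222.8 and 162.9 on the GFP arrays and 216.9, 89.7, 121.4 and 105 on the Ptf1a arrays, with Ptf1a array 1 inside the control range (-0.73 ± 0.25, adjusted p = 0.14, and 0.0114 with the batch term). At NF32 its change was -0.47 ± 0.12 (adjusted p = 0.103, 0.0585 with the batch term).

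A neighbour of serpina1.L, serpina3k.L, was measured at NF36 alone and was dim. It read 15.1, 17, 19.4 and 10.6 on the GFP arrays and 6.4, 8.3, 9.2 and 5.2 on the Ptf1a arrays, without overlap, and fell (-0.43 ± 0.10, adjusted p = 0.0429, and 0.00224 with the batch term). The values of serpina3.L, the next gene along, were between 0.7 and 2.7 on all 8 arrays, too low to compare. Antithrombin, the main plasma inhibitor of thrombin, is encoded by serpinc1, and serpinc1.L had changes of -0.38 ± 0.14 at NF32 and -0.15 ± 0.10 at NF36 and did not pass in either fit. The gene for alpha-2-antiplasmin, serpinf2.S, had changes of -0.35 ± 0.11 and -0.13 ± 0.42 and did not pass either. At NF36 its controls alone ranged from 118.8 to 445.6, a wider spread than the difference between the groups.

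Inter-alpha-trypsin inhibitor joins heavy chains to the small inhibitor bikunin, and it binds hyaluronan in the matrix. The heavy chain gene itih2.S was the gene that passed at both stages. At NF32 itih2.S read 314.5, 307.2 and 204.2 on the GFP arrays and 107.3, 135.1 and 94.3 on the Ptf1a arrays. The highest Ptf1a array lay well under the lowest control, which was GFP array 3 (-1.17 ± 0.19, adjusted p = 0.0246, and 0.00331 with the batch term). On the offset scale the Ptf1a level was 0.44 times that of GFP. At NF36 itih2.S read 650, 797.6, 857.3 and 560 on the GFP arrays and 392, 350.5, 548.3 and 338.4 on the Ptf1a arrays, once more with every Ptf1a array below the controls (-0.80 ± 0.18, adjusted p = 0.0398, and 0.00272 with the batch term). Within batches the log2 difference of itih2.S was -1.42, -1.10 and -0.997 at NF32 and -0.71, -1.15, -0.63 and -0.70 at NF36. It passed in 2 of 6 fits that left out 1 array at NF32, those without GFP array 3 or Ptf1a array 2, with adjusted p from 0.0129 to 0.118, and without GFP array 3 its change was -1.36. In fits with the batch term it passed in all 3 without a batch at NF32 and all 4 at NF36. At NF32 such fits keep only 2 arrays per group. They rest largely on the variance that limma shares over all probe sets. The precursor of bikunin, ambp.L, had changes of -0.28 ± 0.12 at NF32 and -0.13 ± 0.06 at NF36. Its groups did not overlap at either stage, but its brightest probe set passed in neither fit (adjusted p = 0.308 and 0.321, and 0.129 and 0.0709 with the batch term). A dimmer probe set of ambp.L is described below.

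**Figure D2:**
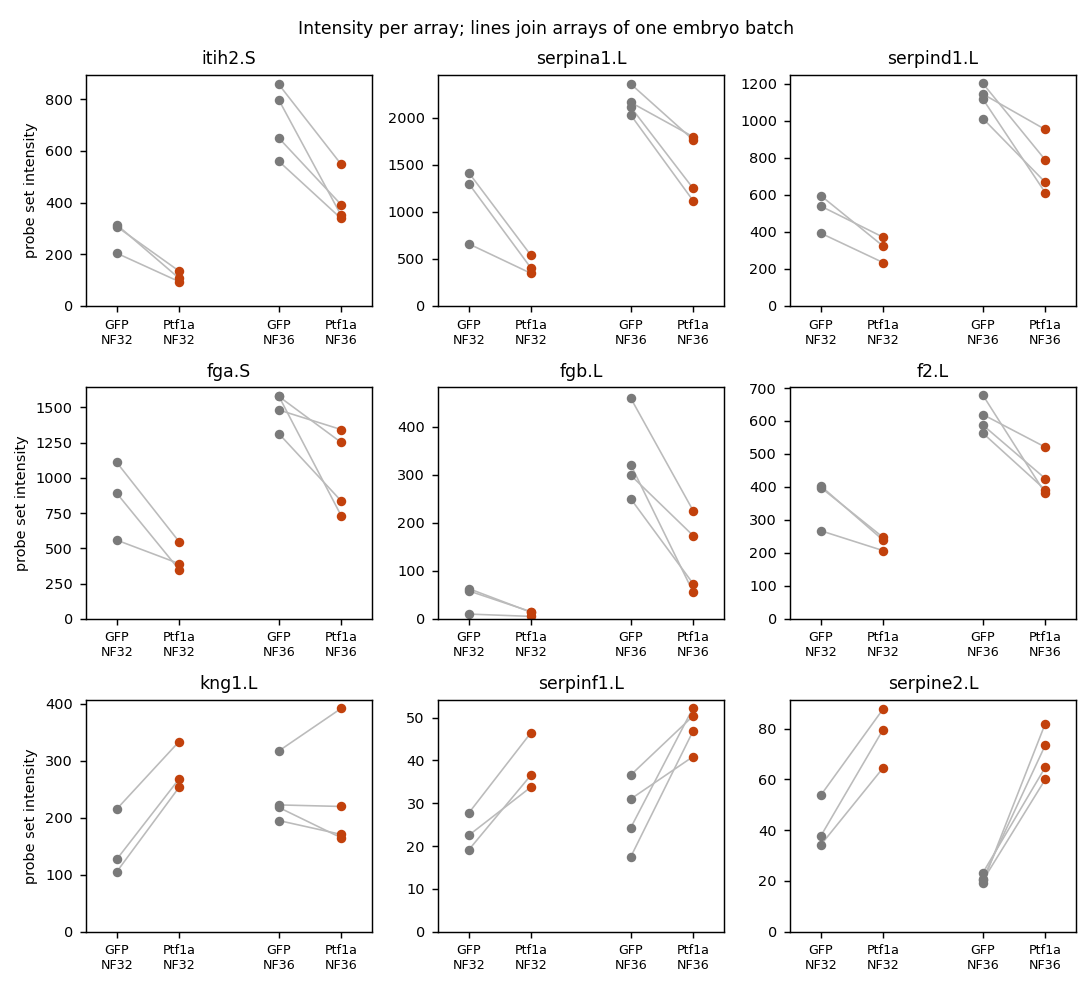
Intensity of 9 genes on each array, GFP in grey and Ptf1a in orange, at NF32 (3 arrays per group) and NF36 (4 per group). Lines join arrays of 1 embryo batch: they run down in every batch for itih2.S, serpina1.L, serpind1.L, fga.S, fgb.L and f2.L, up in every batch for serpine2.L and serpinf1.L, and up for kng1.L at NF32 but not in every batch at NF36.

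All 4 measured fibrinogen genes were lower in every embryo batch of both stages. None passed without the batch term (3 had an unadjusted p under 0.05 at each stage), and all 4 passed with it at both stages. Of all genes, 10.8% at NF32 and 26.5% at NF36 passed with that term. The median log2 difference of the 4 was -1.29, -0.96 and -0.54 in batches 1, 2 and 3 of NF32, and -0.28, -1.84, -0.76 and -0.87 in batches 1 to 4 of NF36. Batch 3 of NF32, which holds the GFP array with the high muscle markers, and batch 1 of NF36 thus had the smallest differences. The alpha chain gene fga.S read 891.3, 1110.1 and 558.3 on the GFP arrays and 349.7, 547.9 and 391.5 on the Ptf1a arrays at NF32. Each Ptf1a array was below the lowest control there (-0.93 ± 0.27, adjusted p = 0.136, and 0.0204 with the batch term). Without GFP array 3 fga.S passed, at -1.21 with an adjusted p of 0.0435. At NF36 fga.S read 1481.6, 1580.1, 1577.9 and 1314 on the GFP arrays and 1342.6, 732.2, 1251.5 and 836.6 on the Ptf1a arrays, with Ptf1a array 1 above GFP array 4 (-0.55 ± 0.19, adjusted p = 0.145, and 0.0396 with the batch term). Its L copy was dim, at 14.6, 25.3 and 11.6 on the GFP arrays and 4.2, 7.9 and 2.3 on the Ptf1a arrays at NF32, without overlap (-0.66 ± 0.17, adjusted p = 0.102, and 0.00664 with the batch term). At NF36 fga.L read 56.5, 118.1, 98.9 and 31.9 on the GFP arrays and 38.5, 15.2, 43.4 and 11.3 on the Ptf1a arrays, where the control range took in 2 Ptf1a arrays (-1.07 ± 0.37, adjusted p = 0.146, and 0.0265 with the batch term).

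The beta chain gene fgb.L read 58.2, 62.9 and 9.9 on the GFP arrays and 14.7, 13.6 and 5 on the Ptf1a arrays at NF32. GFP array 3 lay below 2 of the Ptf1a arrays, so the groups overlapped (-0.997 ± 0.42, adjusted p = 0.311, and 0.0449 with the batch term). Without GFP array 3 fgb.L passed, and its change was -1.52 with an adjusted p of 0.0162. At NF36 fgb.L read 298.9, 320.6, 459.3 and 249.7 on the GFP arrays and 173.2, 55.7, 225.1 and 73.1 on the Ptf1a arrays, the lowest change of all 47 genes at that stage, without overlap (-1.38 ± 0.38, adjusted p = 0.0793, and 0.00869 with the batch term). The gamma chain gene fgg.L read 395.7, 440.4 and 188.2 on the GFP arrays and 119.2, 224.4 and 120.7 on the Ptf1a arrays at NF32, where Ptf1a array 2 exceeded GFP array 3 (-1.04 ± 0.35, adjusted p = 0.201, and 0.0277 with the batch term). At NF36 it read 1005.7, 936.5, 1139.2 and 682.1 on the GFP arrays and 942.6, 304.7, 760.6 and 351.9 on the Ptf1a arrays, and Ptf1a arrays 1 and 3 lay inside the control range (-0.79 ± 0.35, adjusted p = 0.269, and 0.0426 with the batch term). In RefSeq's annotation Xenopus_laevis_v10.1, fga.L lies next to both fgb.L and fgg.L. Leaving out single batches showed which of these calls rest on few arrays. The dim fga.L passed in all 3 such fits with the batch term at NF32 and fgb.L in all 4 at NF36. At NF32 the calls were lost for fga.S and fgb.L without batch 1 or 2 and for fgg.L without batch 2, with adjusted p up to 0.183. At NF36 they were lost for fga.L without batch 3 or 4, and for fga.S and fgg.L without batch 2, 3 or 4, with adjusted p up to 0.130.

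Of the clotting enzymes, 1 of 5 passed at NF36, f2.L, and none of 4 at NF32 (1 had an unadjusted p under 0.05). With the batch term 2 passed at NF32, 1 in each direction, against 10.8% of all genes. At NF36 3 passed lower and 1 higher with that term, against 26.5% of all genes. Prothrombin, the precursor of thrombin, is encoded by f2. At NF32 f2.L read 402.9, 398.2 and 267.1 on the GFP arrays and 238.5, 246.9 and 206.8 on the Ptf1a arrays, without overlap (-0.57 ± 0.16, adjusted p = 0.136, and 0.0188 with the batch term). The call with the batch term was lost without batch 1 or 2. In the fit without GFP array 3 and without the batch term, f2.L passed at -0.76 (adjusted p = 0.0233). At NF36 f2.L read 619.6, 678.3, 587.6 and 563.1 on the GFP arrays and 520.8, 380.8, 425.5 and 391.4 on the Ptf1a arrays, where no Ptf1a array reached a control (-0.50 ± 0.11, adjusted p = 0.0334, and 0.0101 with the batch term). At NF32 the S copy f2.S read 114.2, 100.5 and 36.9 on the GFP arrays and 155.9, 89.7 and 96.5 on the Ptf1a arrays, with GFP array 3 far below the others (0.45 ± 0.36, adjusted p = 0.636, and 0.26 with the batch term). Its differences within batches 1 to 3 were 0.40, -0.14 and 1.09, and without GFP array 3 its change was 0.0433 (adjusted p = 0.959). At NF36 f2.S read 250.1, 267.1, 213 and 128.6 on the GFP arrays and 126.2, 149.1, 134 and 76.1 on the Ptf1a arrays, and it was lower in all 4 batches although the groups overlapped (-0.74 ± 0.25, adjusted p = 0.133, and 0.00115 with the batch term).

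The clotting factor VII gene f7.S went the other way. At NF32 it read 68.7, 48.5 and 49.4 on the GFP arrays and 99.7, 66.2 and 67.4 on the Ptf1a arrays, with each Ptf1a array above its own batch's control and with overlap between the groups (0.38 ± 0.17, adjusted p = 0.331, and 0.0204 with the batch term). By NF36 f7.S read 97.3, 93.3, 75.5 and 107.3 on the GFP arrays and 142.1, 110.1, 114.4 and 115.9 on the Ptf1a arrays, all Ptf1a arrays above all controls (0.32 ± 0.11, adjusted p = 0.133, and 0.0302 with the batch term). These calls were lost without batch 1 or 2 at NF32 and without batch 1, 2 or 3 at NF36, with adjusted p up to 0.140 and 0.0976. The gene for factor IX, f9.S, was measured at NF36 alone, at 34.2, 114.5, 74 and 55.2 on the GFP arrays and 13, 48.8, 59.1 and 30.3 on the Ptf1a arrays. Its groups overlapped widely while each batch's Ptf1a array was the lower one (-0.67 ± 0.36, adjusted p = 0.364, and 0.00924 with the batch term). Factor X, f10.L, had changes of 0.05 ± 0.16 and -0.25 ± 0.18 and passed in neither fit.

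Complement genes gave no call in either fit: 0 of 3 at NF32 and 0 of 4 at NF36, and none had an unadjusted p under 0.05. The central component c3.L read 2069.3, 1868.2 and 1694.3 on the GFP arrays and 1880.8, 2043.2 and 2170.1 on the Ptf1a arrays at NF32, with overlapping groups (0.12 ± 0.10, adjusted p = 0.67), and its change at NF36 was -0.04 ± 0.07. The pore-forming component c9.L had changes of -0.16 ± 0.13 and -0.04 ± 0.12. The convertase subunit cfb.L had changes of 0.34 ± 0.15 at NF32 and -0.25 ± 0.16 at NF36 (adjusted p = 0.324 and 0.476, 0.176 and 0.0595 with the batch term). Its S copy, measured at NF36, read 10.1 to 25.6 over all 8 arrays (-0.13 ± 0.13).

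Among the 7 apolipoprotein genes none passed by its brightest probe set at either stage (3 had an unadjusted p under 0.05 at NF32 and 1 at NF36). Of all genes, 1642 of 9260 at NF32 and 2151 of 9594 at NF36 had such a p. With the batch term none passed at NF32 and 2 at NF36, both lower. These were 28.6% of the set, near the 26.5% of all genes in that fit (13.1% lower). The gene for apolipoprotein B, the scaffold of chylomicrons and very low density lipoprotein, read 1484, 1653.3, 1613.8 and 1065.7 on the GFP arrays and 1493.9, 1088.6, 1214.5 and 716 on the Ptf1a arrays at NF36. Overlap was wide there, and apob.S passed with the batch term only (-0.39 ± 0.23, adjusted p = 0.418, and 0.0379 with the batch term). Without batch 2, 3 or 4 that call was lost, with adjusted p up to 0.140. The beta-2-glycoprotein gene apoh.L read 952.2, 1056.1, 947.1 and 956.9 on the GFP arrays and 900.2, 912.5, 837.5 and 864.9 on the Ptf1a arrays at NF36, a small difference without overlap (-0.15 ± 0.06, adjusted p = 0.21, and 0.0451 with the batch term). It passed in none of the 4 fits that left out a batch, with adjusted p from 0.0594 to 0.137. The high density lipoprotein gene apoa1 was without overlap at NF32: apoa1.L read 1872.3, 1856.4 and 1250.9 on the GFP arrays and 1248.7, 1193.8 and 1166.2 on the Ptf1a arrays (-0.44 ± 0.16, adjusted p = 0.232, and 0.0771 with the batch term). Likewise apoa1.S read 1399.1, 1348.7 and 834.1 on the GFP arrays and 777.5, 713.1 and 784.9 on the Ptf1a arrays (-0.61 ± 0.19, adjusted p = 0.173, and 0.0813 with the batch term). GFP array 3 lay nearest to the Ptf1a arrays for both copies. Both passed without that array, apoa1.L at -0.63 with an adjusted p of 0.0221 and apoa1.S at -0.84 with an adjusted p of 0.0129. At NF36 the changes of apoa1.L and apoa1.S were -0.11 and -0.20. The remaining apolipoprotein genes, apoa4.L, apoa4.S and apoe.L, had changes from -0.47 to 0.22 at NF32 and from -0.14 to 0.16 at NF36. Their brightest probe sets gave no call, and a dimmer probe set of apoe.L is described below.

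By their brightest probe sets the 5 plasma carrier genes gave no call in either fit at either stage, and only ttr.L at NF36 had an unadjusted p under 0.05. At NF32 the retinol carrier gene rbp4.L read 447.6, 771 and 475.3 on the GFP arrays and 233, 411.8 and 430.8 on the Ptf1a arrays, just without overlap (-0.64 ± 0.28, adjusted p = 0.337, and 0.0662 with the batch term). At NF36 its change was -0.19 ± 0.17. A dimmer probe set of rbp4.L went from 457 to 254 at NF32 and passed with the batch term only (-0.77 ± 0.33, adjusted p = 0.316, and 0.0176 with the batch term). Transthyretin, a carrier of thyroid hormone, is encoded by ttr.L, which read 818, 654.2 and 154.3 on the GFP arrays and 404.8, 423.3 and 434.7 on the Ptf1a arrays at NF32. GFP array 3 was the lowest of all 6 arrays, and the size of the change depended on it. The change was -0.06 with it and -0.78 without it, where ttr.L passed with an adjusted p of 0.0317. Over the 6 fits that left out 1 array, the change of ttr.L ran from -0.78 to 0.37, so its sign was not stable. At NF36 ttr.L read 2220.2, 2341.6, 2505.4 and 2179.5 on the GFP arrays and 2235.2, 1622.8, 2149.5 and 1639.2 on the Ptf1a arrays, with 1 Ptf1a array inside the control range (-0.29 ± 0.12, adjusted p = 0.227, and 0.0613 with the batch term). Iron is carried by transferrin, and its genes tf.L and tf.S differed in sign between batches at both stages. At NF36 tf.L read 822.8, 558.4, 487.4 and 760.6 on the GFP arrays and 1300.7, 409.5, 475.8 and 1158 on the Ptf1a arrays, arrays 1 and 4 of each group reading higher than arrays 2 and 3 (0.20 ± 0.38, adjusted p = 0.889, and 0.483 with the batch term). At NF32 tf.L passed in the fit without GFP array 1, as a rise with an adjusted p of 0.0406, whereas its change with all arrays was 0.50 ± 0.42.

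Fetuins are plasma glycoproteins that bind mineral and inhibit proteases, and kininogen releases bradykinin. The kininogen gene kng1.L read 214.9, 126.8 and 104.9 on the GFP arrays and 333.3, 267.7 and 253 on the Ptf1a arrays at NF32. Every Ptf1a array was above every control (0.91 ± 0.24, adjusted p = 0.106, and 0.0101 with the batch term). It passed with the batch term in all 3 fits that left out a batch. At NF36 kng1.L read 316.9, 217.9, 194.9 and 222.3 on the GFP arrays and 391.5, 164.7, 170.6 and 219.6 on the Ptf1a arrays, higher in the Ptf1a explants in batch 1 only (-0.07 ± 0.26, adjusted p = 0.955, and 0.675 with the batch term). The fetuin gene ahsg.L read 49.5, 97.7, 89.4 and 2.5 on the GFP arrays and 31.4, 59.6, 57.7 and 1.7 on the Ptf1a arrays at NF36. Both arrays of batch 4 were near 2, and in each batch the Ptf1a array was the lower one (-0.41 ± 0.65, adjusted p = 0.851, and 0.0208 with the batch term). Without batch 1, 2 or 3 its call with the batch term was lost. The related fetub.S had changes of -0.08 ± 0.14 and -0.16 ± 0.06 and did not pass, though its groups did not overlap at NF36.

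**Figure D3:**
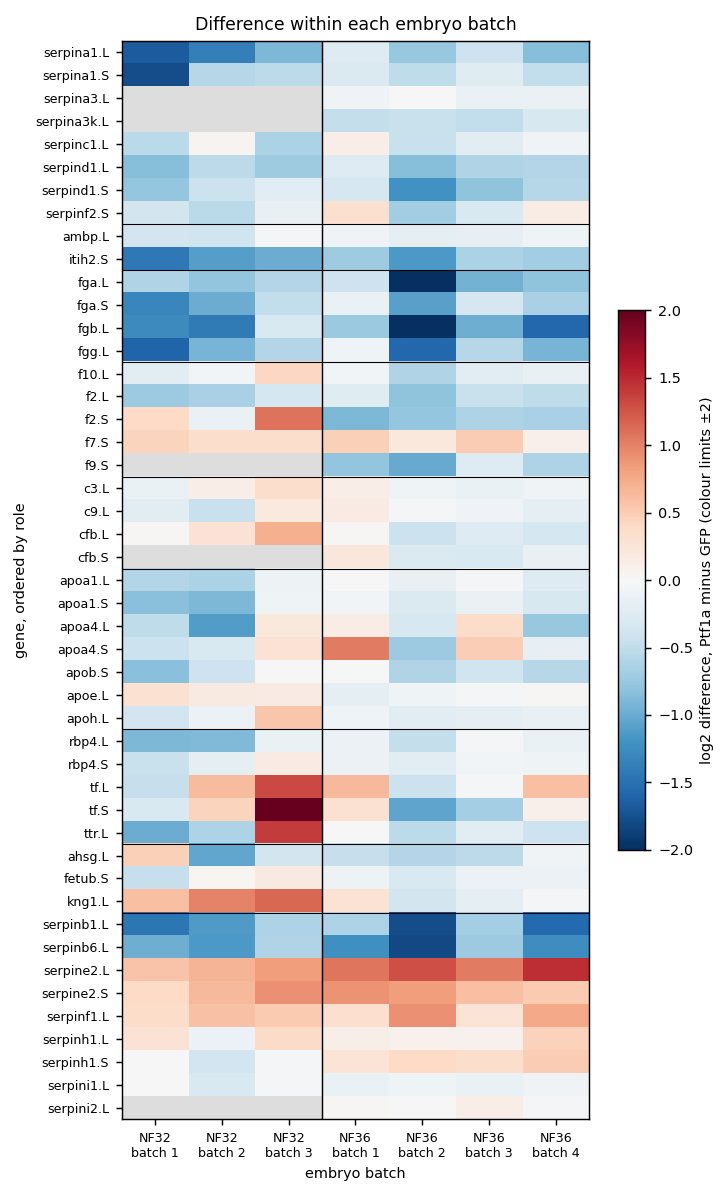
Log2 difference of intensity + 16 (Ptf1a minus GFP) within each embryo batch, 3 batches at NF32 and 4 at NF36, for all 47 genes in order of role. Blue is lower in Ptf1a explants, red higher, grey not measured, and colours end at ±2. Fibrinogen chains, itih2.S, serpinb1.L and serpinb6.L are blue in every batch, serpine2.L and serpinf1.L red in every batch, and batch 3 of NF32 is paler or redder than batches 1 and 2 for many plasma protein genes.

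The other serpins moved in both directions. At NF32 none of 8 passed (4 had an unadjusted p under 0.05), and with the batch term 2 passed lower and 3 higher. At NF36 2 of 9 passed, both higher, and with the batch term 2 passed lower and 4 higher. Of all genes, 5.42% passed lower and 5.35% higher with the batch term at NF32, and 13.1% and 13.4% at NF36. Protease nexin-1, an inhibitor of thrombin and plasminogen activators at cell surfaces, is encoded by serpine2. The L copy serpine2.L had the smallest p of the 47 genes at NF36, where it read 20.2, 20.8, 23.2 and 19.3 on the GFP arrays and 60, 73.5, 64.8 and 82 on the Ptf1a arrays. The Ptf1a arrays were all well above the controls (1.22 ± 0.09, adjusted p = 0.0018, and 0.000714 with the batch term), a level of 2.33 times GFP on the offset scale. No single array decided this call, which held in each of 8 fits without one. At NF32 serpine2.L read 53.8, 34.2 and 37.7 on the GFP arrays and 87.8, 64.6 and 79.7 on the Ptf1a arrays, also without overlap (0.70 ± 0.15, adjusted p = 0.0636, and 0.00664 with the batch term). The S copy serpine2.S read 86, 83.9, 87.8 and 56.8 on the GFP arrays and 174.3, 162.8, 140.8 and 88.3 on the Ptf1a arrays at NF36, every Ptf1a array above every control (0.71 ± 0.20, adjusted p = 0.0785, and 0.00217 with the batch term). At NF32 serpine2.S read 81.2, 57 and 113.7 on the GFP arrays and 112.5, 97.9 and 227.8 on the Ptf1a arrays, with overlap, and was higher in each batch (0.65 ± 0.32, adjusted p = 0.395, and 0.0199 with the batch term). Its call at NF32 was lost without batch 2.

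Pigment epithelium-derived factor, a serpin without inhibitor activity that limits vessel growth, is encoded by serpinf1. At NF32 serpinf1.L read 22.5, 19.1 and 27.7 on the GFP arrays and 33.8, 36.6 and 46.5 on the Ptf1a arrays, dim and without overlap (0.49 ± 0.12, adjusted p = 0.09, and 0.0141 with the batch term). At NF36 it read 36.6, 17.5, 31 and 24.3 on the GFP arrays and 50.4, 46.9, 40.9 and 52.3 on the Ptf1a arrays, without overlap again, and it rose (0.57 ± 0.14, adjusted p = 0.0488, and 0.0153 with the batch term). The calls with the batch term were lost without batch 1 or 2 at NF32 and without batch 2 or 4 at NF36, at adjusted p up to 0.0647. The collagen chaperone gene serpinh1.S read 63.9, 201.6, 179.1 and 208.4 on the GFP arrays and 80.6, 270.3, 234 and 303.8 on the Ptf1a arrays at NF36. Both arrays of batch 1 were far lower than the rest, and within each batch the Ptf1a array was the higher one (0.38 ± 0.45, adjusted p = 0.763, and 0.00407 with the batch term). At NF32 its change was -0.14 ± 0.12. By their brightest probe sets the L copy serpinh1.L, neuroserpin serpini1.L and serpini2.L passed in neither fit. A dimmer probe set of serpinh1.L passed higher at NF36 with the batch term only (0.25 ± 0.27, adjusted p = 0.735, and 0.0357 with the batch term).

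Both genes of the serpinb clade, whose products stay inside cells, were lower. Leukocyte elastase inhibitor, encoded by serpinb1, protects neutrophils from their own proteases. At NF32 serpinb1.L read 130.1, 140.8 and 71.7 on the GFP arrays and 37.4, 55.8 and 41.4 on the Ptf1a arrays, without overlap (-1.06 ± 0.23, adjusted p = 0.0645, and 0.0154 with the batch term). Without GFP array 3 it passed, at -1.33 with an adjusted p of 0.0135. At NF36 serpinb1.L read 373.7, 312.9, 541.2 and 297.9 on the GFP arrays and 238, 79.9, 332 and 90.4 on the Ptf1a arrays, with Ptf1a array 3 inside the control range (-1.16 ± 0.42, adjusted p = 0.163, and 0.0108 with the batch term). Its annotated neighbour serpinb6.L read 93.6, 163.3 and 63.9 on the GFP arrays and 39.4, 64.9 and 36.5 on the Ptf1a arrays at NF32, with slight overlap (-0.91 ± 0.30, adjusted p = 0.193, and 0.00954 with the batch term). At NF36 serpinb6.L read 348.4, 359, 428.6 and 166.8 on the GFP arrays and 138.9, 90.9, 253.4 and 61.3 on the Ptf1a arrays, with 1 Ptf1a array above the lowest control (-1.25 ± 0.40, adjusted p = 0.122, and 0.00351 with the batch term). Both genes passed with the batch term in all 4 fits without a batch at NF36, but at NF32 serpinb1.L was lost without batch 2 and serpinb6.L without batch 1. Markers of blood and immune cells were lower on the same arrays: 14 of 21 passed lower and 1 higher at NF32, and 6 of 24 lower at NF36. Of all genes 1.63% passed lower and 2.3% higher at NF32, and 2.23% lower at NF36. The marker sums are given next. The blood and immune markers summed to 7264 to 12460 in GFP and 859.9 to 2171 in Ptf1a explants at NF32, and to 4916 to 10740 and 1468 to 6076 at NF36, and none read 0 on any array. The neutrophil protease genes prtn3.L and prtn3.S were among them, with log2 changes of -1.85 and -3.10 at NF32 and -1.37 and -1.36 at NF36. Their part in the serpinb values was not tested.

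Changes at the stages were alike in sign for most genes. Of 42 genes measured at both, 26 had a change below 0 at both (61.9%, against 38.2% of all 9139 genes), 6 above 0 at both and 10 of opposite sign. Across these 42 genes the changes had a Pearson r of 0.69 and a Spearman rho of 0.70, against 0.58 and 0.54 over all genes, which are descriptions over genes that share arrays. In the fits with the batch term 14 genes passed at both stages, 93.3% of the 15 calls at NF32 and 60.9% of the 23 at NF36, all in the same direction and 10 of them lower. Of all genes 10.8% passed in this fit at NF32 and 26.5% at NF36. The share of all genes that passed at both stages was not computed, so this repetition is not shown to be particular to these genes. The difference between stages was tested as a contrast in limma. None of 42 passed (4 had an unadjusted p under 0.05, smallest adjusted p 0.254), against 1.26% of all genes, 0.733% higher and 0.525% lower. The batch term gave 4 calls, against 6.22% of all genes, 4.41% higher and 1.81% lower: f2.S (NF36 minus NF32, -1.19, adjusted p = 0.0274), kng1.L (-0.98, 0.0168), serpine2.L (0.52, 0.0393) and serpinh1.S (0.52, 0.0252). The serpina1.L change was nearer 0 at NF36 than at NF32, by 0.74 ± 0.35, and did not pass (adjusted p = 0.578, 0.0709 with the batch term). The contrast was also fitted without arrays of NF32 batch 3, an alternative chosen after the data were seen. Without GFP array 3 and without the batch term none of 42 passed, against 0.416% of all genes, and the f2.S difference was -0.78 (adjusted p = 0.721). With the batch term and without both NF32 arrays of batch 3, 6 passed, against 4.1% of all genes. Of the 4 genes above, f2.S (-0.87, adjusted p = 0.0327) and serpinh1.S (0.57, 0.0483) were among them, and kng1.L (-0.86, 0.0553) and serpine2.L (0.59, 0.0559) were not. The others were serpina1.L (0.95, 0.0368), rbp4.L (0.70, 0.0330), apoa1.L (0.49, 0.0351) and apoa1.S (0.67, 0.0185), whose changes were all nearer 0 at NF36. With all arrays and the batch term these 4 did not pass (adjusted p = 0.0709, 0.258, 0.233 and 0.288). GFP array 3 was picked by the low sum of these same genes, so leaving out its batch tends to deepen their falls at NF32. Calls gained that way are not separate support for a difference between stages.

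**Figure D4:**
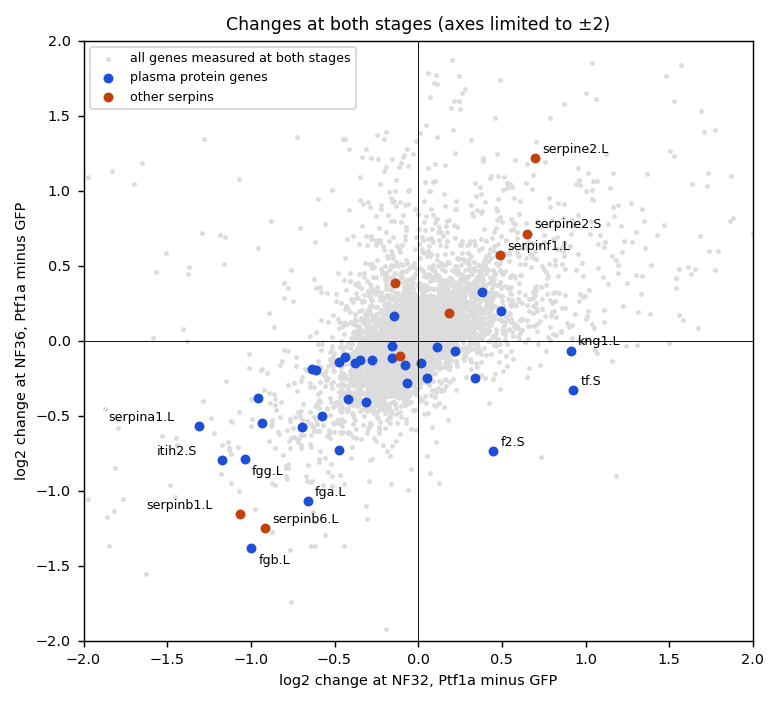
Log2 change (Ptf1a minus GFP) at NF36 against that at NF32 for all genes measured at both stages (light grey), the plasma protein genes (blue) and the other serpins (orange), with axes limited to ±2. Most of the blue points lie at the lower left, serpine2 and serpinf1.L lie in the upper right, and kng1.L, tf.S and f2.S lie right of 0 at NF32 and below 0 at NF36.

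The L and S copies of a gene were compared by the difference of their log2 values on each array, a test chosen after the data were seen. Of 10 pairs at NF32, 8 had changes of 1 sign, and of 11 at NF36, 9. None of these pairs passed (1 had an unadjusted p under 0.05 at each stage), against 0.816% of 1594 pairs at NF32 and 2.37% of 1648 at NF36. The batch term gave 1 pair at NF32, against 3.01% of all pairs: f2, whose L copy changed by 1.02 ± 0.25 less than its S copy (L minus S -1.02, adjusted p = 0.169, 0.0380 with the batch term). That call was lost without both arrays of batch 3 (-0.82, adjusted p = 0.203 with the batch term), and without GFP array 3 alone the difference was -0.80 (adjusted p = 0.240). Without those 2 arrays the batch term gave no call among all pairs, 0%. At NF36 3 of 11 did, against 17.9%: tf (L minus S 0.53, adjusted p = 0.00383 with the batch term), serpine2 (0.50, 0.0306) and fga (-0.52, 0.0416). Cross-hybridization of a probe set to the other copy was not tested.

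Several genes had more than 1 probe set, and these did not always agree. At NF32 the dimmer set showed the larger change in 6 of 9 such genes and the opposite sign in 2, apoe.L and serpinh1.S. At NF36 the dimmer set showed the larger change in 8 of 10, with no opposite sign. The dimmer set of ambp.L went from 634 to 262 at NF32, a change of -1.18 ± 0.26 (adjusted p = 0.0686, 0.00796 with the batch term), where the brighter one changed by -0.28. For apoe.L, which encodes a ligand of lipoprotein receptors, the dimmer set went from 406 to 232 (-0.77 ± 0.20, adjusted p = 0.104, 0.0199 with the batch term) and the brighter one from 1461 to 1698. The dimmer set of serpina1.L at NF36 went from 1535 to 857 and passed (-0.86 ± 0.20, adjusted p = 0.0473).

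Other liver genes, from lists written with earlier results of these data known, were set beside these. Of all genes, 1.63% passed lower and 2.3% higher at NF32, and 2.23% and 4.17% at NF36. With the batch term these shares were 5.42% and 5.35% at NF32, and 13.1% and 13.4% at NF36. Of other secreted liver proteins, 1 of 23 passed at NF32 and 3 of 29 at NF36, all lower, and with the batch term 6 lower and 1 higher at NF32 and 11 lower and 2 higher at NF36. The apolipoprotein M gene apom.L passed at both stages, from 309 to 197 at NF32 (-0.61 ± 0.11, adjusted p = 0.0341) and from 497 to 342 at NF36 (-0.53 ± 0.10, adjusted p = 0.0227). The protein C gene proc.S, whose product shuts down clotting, fell from 65.1 ± 11.8 to 27.1 ± 3.00 at NF36 (SD, n = 4 each, -0.91 ± 0.10, adjusted p = 0.00585) and kept its call without any 1 of the 8 arrays. Of intracellular liver enzymes, 2 of 27 passed lower at NF32, and 4 lower and 2 higher of 35 at NF36, and with the batch term 6 lower and 1 higher at NF32 and 10 lower and 5 higher at NF36. Of 26 liver transcription factor genes, 3 passed lower at NF32, and 2 lower and 2 higher at NF36, and with the batch term 11 lower at NF32 and 7 lower and 6 higher at NF36. The one with the smallest p at NF32, cebpa.L, a factor that drives hepatocyte genes, fell from 218 ± 31.6 to 88.0 ± 18.3 (SD, n = 3 each, -1.17 ± 0.15, adjusted p = 0.0129) and passed in 5 of 6 fits that left out an array. At NF36 cebpa.L went from 290 ± 61.3 to 174 ± 46.4 (SD, n = 4 each, -0.70 ± 0.20, adjusted p = 0.0835, 0.00166 with the batch term). Median changes of these lists were between -0.16 and -0.19 at NF32 and between -0.03 and -0.20 at NF36.

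Markers of other cells also differed between the groups, though not always batch by batch with the plasma protein genes. Within batches the plasma protein genes without the other serpins had a median log2 difference of -0.48, -0.44 and -0.02 at NF32, with 28, 25 and 18 of 34 genes lower. The skeletal muscle markers had medians of 2.90, 3.45 and 0.15 in the same batches. None of the 16 passed, 12 had an unadjusted p under 0.05, and 1 passed higher with the batch term. At NF36 the plasma protein medians were -0.08, -0.49, -0.23 and -0.23 over batches 1 to 4, with 23, 37, 35 and 33 of 38 genes lower, and the muscle medians were 1.22, 1.19, -0.34 and -0.16. The muscle sums of these batches went from 2128 to 5143, 2021 to 4204, 2374 to 2115 and 1640 to 2421. Of 18 muscle markers, 2 passed at NF36, both lower, the copies myog.L (-0.51 ± 0.10, adjusted p = 0.0224) and myog.S (-0.83 ± 0.18, 0.0334) of the myogenin gene, while 14 had a change above 0. Of 24 epidermis markers, 1 passed higher at NF32 and 14 at NF36, against 2.3% and 4.17% of all genes. Epidermis sums were 3039 to 5248 in GFP and 7244 to 9552 in Ptf1a explants at NF36. Of 28 neuron markers, 17 passed higher at NF32, and 5 of 27 did at NF36, against the same 2.3% and 4.17% of all genes. Of 19 heart muscle markers, 13 passed lower at NF32, against 1.63% of all genes. None of 20 passed at NF36 (9 had an unadjusted p under 0.05, 2 passed with the batch term, both higher). At NF36 19 of the 20 had a change above 0, with a median of 0.71, and batch medians were 0.40, 0.26, 0.34 and 1.81, highest in batch 4. Yolk and gut markers passed lower in 2 of 11 at NF32 and 2 of 12 at NF36, against 1.63% and 2.23% of all genes. With the batch term 4 and 9 of them passed lower and none higher, against 5.42% and 13.1% of all genes lower. Their median changes were -0.41 and -0.43, where those of the 42 and 47 genes described here were -0.22 and -0.16. No gene of the muscle, heart, epidermis or yolk and gut lists read 0 on any array. Their part in the plasma protein values was not tested.

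**Figure D5:**
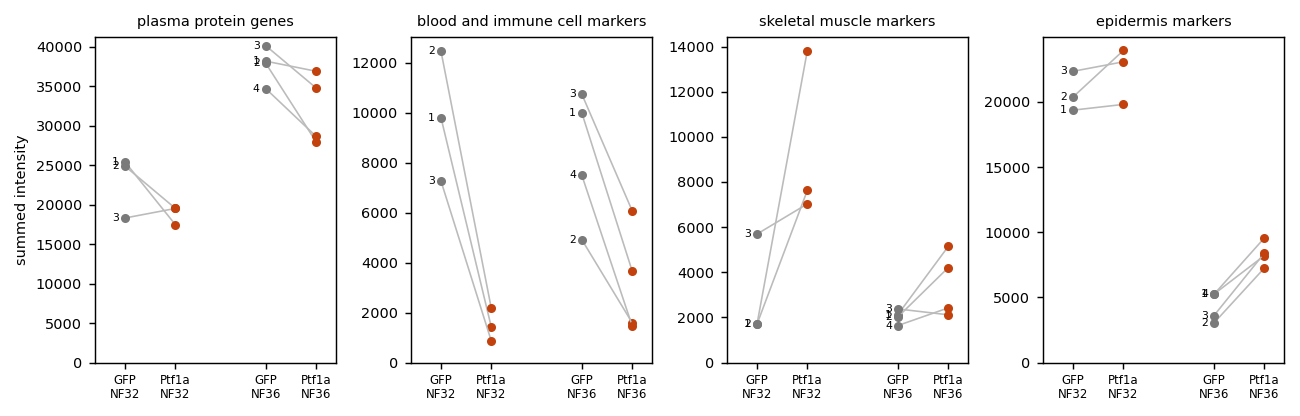
Summed intensity per array of the plasma protein genes without other serpins and of blood and immune, skeletal muscle and epidermis markers, GFP in grey and Ptf1a in orange, with lines joining arrays of 1 embryo batch and numbers giving the batch. Plasma protein sums run down in every batch except batch 3 of NF32, blood sums run down in all 7 batches, and GFP array 3 of NF32 is low in the first panel and high in the third.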

How the data were processed

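The authors deposited 1 table of intensity values, linear and with 1 decimal, with a column for each array. The submitters' processing notes list PLIER, which condenses a probe set's probes into 1 intensity. For its version and role, for the scaling, for any filter and for a genome build, a statement was not found in the sources used here. The series text names an earlier chip for NF36, whereas both stages carry identifiers of the same chip. Probe sets were named by the platform annotation where it gave 1 symbol, and all 47 genes matched RefSeq (Xenopus_laevis_v10.1) by gene ID. Sequences, positions and promoter motifs were not used here.

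Intensities were turned into log2(intensity + 16) and compared within each stage over all 22855 (NF32) or 23614 (NF36) probe sets with limma 3.58.1 in R 4.3.3 (lmFit, eBayes, 2-sided). The contrast between stages ran over 9139 genes. The number of arrays, 3 or 4 per group, limits the precision.

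Arrays with the same number came from 1 batch of embryos per the labels' design text. Departures from the group means correlated at 0.711, 0.297 and 0.416 for same-numbered arrays of NF32 and 0.765, 0.670, 0.717 and 0.639 of NF36, across probe sets, above every other pairing. Batch was therefore also fitted as a block. Genes described are all that passed at a stage in either fit or differed between stages, and up to 2 by smallest p in each role. From context lists up to 3 genes were taken by p, and prtn3 and the endoderm factors were chosen after their values were seen. Members, lists and tests were chosen with earlier results of these data known. Alternatives were other offsets (1 or 64), median centring or quantile normalization, a filter at the 40th percentile of intensity, the batch term, trend and robust eBayes, array weights, other probe set choices, and leaving out each array.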

Additional observations from a re-analysis of the deposited data

Results flagged for a closer look

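In 6 of 94 groups of 4 arrays, 1 array stood apart from the others by more than Dixon's 95% critical value allows. Chance gives this in about 1 of 20 groups. On GFP array 3 of NF36, cfb.S read 25.6 where the others read 15.2 to 16, and apoa4.L read 529.2 where the others read 241.4 to 261.1. On GFP array 2 of NF36, apoh.L read 1056.1 where the others read 947.1 to 956.9. On GFP array 4 of NF36, serpine2.S read 56.8 where the others read 83.9 to 87.8. On GFP array 1 of NF36, serpinh1.L read 18.8 where the others read 52.0 to 56.5. On Ptf1a array 1 of NF36, c3.L read 2099.9 where the others read 1776.4 to 1779.4.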

How the results depend on the processing

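The count of calls depended most on the replicate block, which uses the pairing of arrays by embryo batch: it moved 1 to 15 at NF32, 6 to 23 at NF36, and 0 to 4 for the difference between stages. Leaving out 1 array gave 0 to 9 calls at NF32 and 1 to 6 at NF36, against 1% to 3.1% and 2.15% to 7% of all genes. At NF32 it gave 9 without GFP array 3 (3.1% of all genes), 3 (all higher) without GFP array 1 (2.22%), and 0 without GFP array 2 or Ptf1a array 1 or 3. It left the difference between stages at 0. With the block and without both arrays of a batch, an alternative chosen after the data were seen, 9, 8 and 24 genes passed at NF32, against 3.76%, 4.61% and 9.73% of all genes, and 24, 15, 16 and 17 at NF36, against 20.1%, 14.7%, 19.3% and 14.6%. Of the calls with the block, 6 of 15 and 14 of 23 held in all of these fits. At NF32 these fits keep only 2 arrays per group and rest largely on the variance that limma shares over all probe sets. An offset of 64 gave 2 calls at NF36, and the other settings gave 4 to 9 there and 1 at NF32. Shares of all genes in these settings are not given here, so these counts show nothing particular to these genes. The change of ahsg.L at NF36 ran from -0.99 without GFP array 4 to 0.0557 without Ptf1a array 4, a change of sign whose cause was not tested. Those 2 arrays read 2.5 and 1.7 for ahsg.L, and the other arrays of NF36 read 31.4 to 97.7. Medians stayed below 0 in all settings run, from -0.35 to -0.09 at NF32 and -0.25 to -0.13 at NF36. Dim probe sets, with 25.4% to 27.5% of values below 16 at NF36, limit what serpina3.L, serpina3k.L, serpini2.L and cfb.S can show there. At NF32 the same limit holds for fga.L, whose mean intensity was 17.2 in GFP and 4.8 in Ptf1a explants.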

Other observations

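Enzyme and factor genes of liver outside the plasma proteins gave calls in both directions at NF36. The serine dehydratase genes, whose product feeds amino acids into glucose synthesis, rose: sds.L read 8.35 ± 2.49 in GFP and 66.4 ± 27.9 in Ptf1a explants (SD over 4 arrays each), a log2 change of 1.71 ± 0.20 with an adjusted p of 0.00589. The change of sds.S was 0.90 ± 0.11 (adjusted p = 0.00634), and both genes held their calls without any 1 of the 8 arrays. The sds.S probe set was dim, at 0.80 ± 0.71 in GFP and 15.7 ± 5.26 in Ptf1a explants. Both means lay under the offset of 16, so the size of its log2 change depends on that offset. The urea cycle gene otc.S fell from 27.4 ± 10.8 to 4.75 ± 3.18 (-1.05 ± 0.18, adjusted p = 0.0174). The factor gene cebpd.S rose from 51.9 ± 15.6 to 188 ± 31.0 (1.61 ± 0.19, adjusted p = 0.00589), and ppara.S, a regulator of fatty acid oxidation, fell from 219 ± 17.8 to 138 ± 15.96 (-0.62 ± 0.09, adjusted p = 0.0112).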
